A study of Homo sapiens with 6 samples.

Results

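Poly(ADP-ribose) polymerases (PARPs) move ADP-ribose from NAD+ onto proteins or nucleic acids, either as a single unit or as a chain. The 8 genes described here are PARP9, PARP10, PARP12, PARP14 and ZC3HAV1, 5 PARP family genes known as interferon-inducible and antiviral, DTX3L, a ubiquitin ligase that works in a complex with PARP9, and PARP1 and PARP2, the family members that bind DNA breaks and begin their repair. They were found by gene name among the 58302 gene rows of the deposited table, and all 8 were present once. The first 6, called interferon-linked below, were selected on their lower counts in the overexpression libraries of this same comparison, and PARP1 and PARP2 were chosen as a contrast. Their differences between the groups are therefore given as a description. Where a count of them past a threshold is given, it stands beside the share of all genes and supports nothing.

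RNA was sequenced from A549 cells, an established human lung adenocarcinoma line used at passage 6 to 8. There were 3 libraries from cells transfected with SNHG5, a long non-coding RNA (labelled overexpression replicates 1, 2 and 3), and 3 from cells transfected with a vector (control replicates 1, 2 and 3). All 6 come from the same line in the same medium, and nothing in the labels says whether the transfected cells were a pool or a clone. The labels call the replicates biological, and no untransfected library was analysed here.

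Interferon made by infected or RNA-stressed cells activates a transcription factor complex (ISGF3) that contains STAT2 and IRF9. That complex binds the interferon-stimulated response element (ISRE) near the starts of its target genes. Among the targets, PARP10, PARP12 and PARP14 add single ADP-ribose units, ZC3HAV1 (the zinc finger antiviral protein, ZAP, also called PARP13) binds CpG-rich viral RNA and has no transferase activity, and PARP9 with DTX3L modifies histones and ubiquitin during antiviral and DNA damage responses.

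The 300-base windows around the annotated starts of 7 of the 8 genes were taken from RefSeq (build GRCh38.p14). PARP10 had no window in the set used and was not searched. The windows held 250 bases before the start and 50 from it onwards. They were searched on both strands for the core of the ISRE, GAAA followed by any 2 bases and GAAA. The windows that carry a match, and that of ZC3HAV1, which carries none, are shown because the genes are the lower ones; capitals mark the match, which starts and ends with TTTC where it lies on the opposite strand.
PARP9 (chr3:122564251-122564550, minus strand): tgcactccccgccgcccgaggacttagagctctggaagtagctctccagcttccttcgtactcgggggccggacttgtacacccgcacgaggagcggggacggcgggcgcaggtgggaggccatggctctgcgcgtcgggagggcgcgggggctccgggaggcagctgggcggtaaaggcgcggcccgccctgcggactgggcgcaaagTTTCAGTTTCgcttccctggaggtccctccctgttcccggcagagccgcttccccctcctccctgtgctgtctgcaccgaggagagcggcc
DTX3L (chr3:122564088-122564387, plus strand): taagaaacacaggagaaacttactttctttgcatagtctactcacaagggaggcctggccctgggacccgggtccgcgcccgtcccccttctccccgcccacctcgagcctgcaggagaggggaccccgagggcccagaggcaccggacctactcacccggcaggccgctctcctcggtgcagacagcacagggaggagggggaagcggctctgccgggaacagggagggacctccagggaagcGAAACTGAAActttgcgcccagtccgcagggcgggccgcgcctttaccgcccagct
PARP14 (chr3:122680589-122680888, plus strand): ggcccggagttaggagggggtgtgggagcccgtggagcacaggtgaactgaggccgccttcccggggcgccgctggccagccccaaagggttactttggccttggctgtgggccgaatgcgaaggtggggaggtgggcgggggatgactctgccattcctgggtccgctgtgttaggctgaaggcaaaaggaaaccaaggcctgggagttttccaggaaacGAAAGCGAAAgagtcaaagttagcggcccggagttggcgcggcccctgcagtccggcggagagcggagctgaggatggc
PARP12 (chr7:140062902-140063201, minus strand): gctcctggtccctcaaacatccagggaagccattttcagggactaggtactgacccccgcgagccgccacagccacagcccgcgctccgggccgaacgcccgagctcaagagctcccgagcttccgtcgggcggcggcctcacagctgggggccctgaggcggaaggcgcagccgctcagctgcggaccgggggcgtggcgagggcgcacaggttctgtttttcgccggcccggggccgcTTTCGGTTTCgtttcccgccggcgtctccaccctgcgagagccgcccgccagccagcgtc
ZC3HAV1 (chr7:139109671-139109970, minus strand): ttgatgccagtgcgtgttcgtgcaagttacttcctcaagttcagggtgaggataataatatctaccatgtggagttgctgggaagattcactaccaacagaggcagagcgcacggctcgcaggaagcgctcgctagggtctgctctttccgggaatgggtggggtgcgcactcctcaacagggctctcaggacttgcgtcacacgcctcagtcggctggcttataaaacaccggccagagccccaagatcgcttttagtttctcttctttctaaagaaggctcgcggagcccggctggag
PARP9 and DTX3L lie head to head on chromosome 3, and the match in their windows was the same stretch of DNA, chr3:122564332-122564341. It began 41 bases before the start of PARP9 and, read in the other direction, 6 bases before the start of DTX3L. The match of PARP14 began 29 bases before its start and that of PARP12 10 bases before. The motif was found in 3.57% of all 35116 windows of this length, in 4 of the 5 interferon-linked genes with a window, in neither PARP1 nor PARP2, and in 0 of 8 other PARP family genes with a window. A form with any 3 bases in place of the 2 added none of the genes described here that had a window. Of the other PARP family genes, it added TIPARP. The motif of STAT dimers, TTCNNNGAA, which 7.66% of windows hold, was present in PARP14, ZC3HAV1 and PARP2, and the window of PARP14 held both motifs side by side without overlap. A second start of PARP9, chr3:122564735-122565034, had no match of either kind. These are matches of letters only, and no binding was measured.

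**Figure D1:**
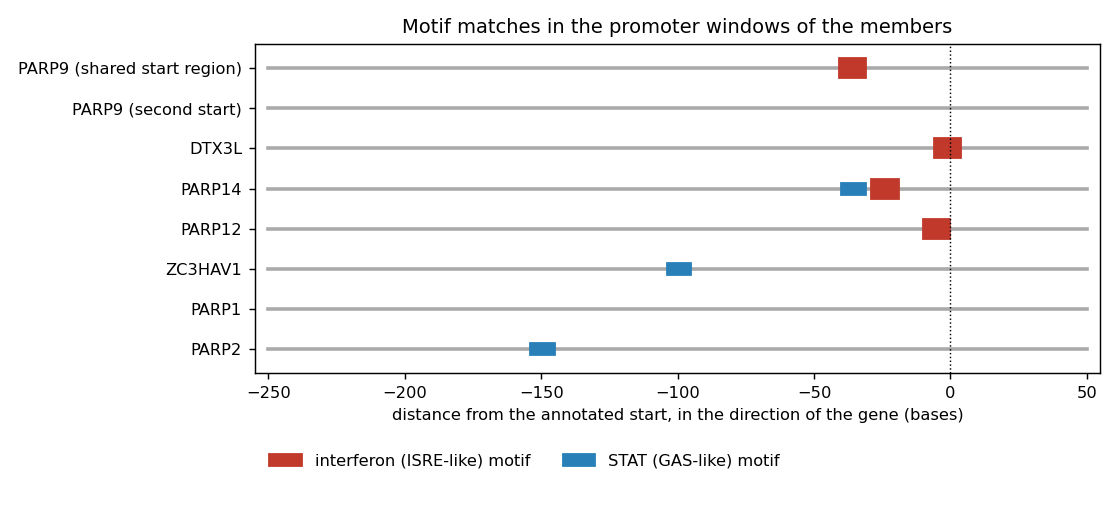
Positions of motif matches in the 300-base promoter windows of 7 of the 8 genes (all but PARP10), in bases from the annotated start (dotted line). Each gene is drawn in its own direction. Red boxes are matches to the interferon motif and blue boxes matches to the STAT motif; PARP9, DTX3L, PARP14 and PARP12 carry a red box that begins within 41 bases before the start.

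The libraries held 13378079 to 16999604 counts. SNHG5 itself stood at 153, 126 and 62.9 CPM (counts scaled to a common library total with TMM normalization) in overexpression replicates 1, 2 and 3, against 61.0, 101 and 55.1 CPM in control replicates 1, 2 and 3 (log2 fold change 0.66, SE 0.37, edgeR quasi-likelihood adjusted p 0.746). The library labelled overexpression 3 thus held less SNHG5 than control 2, and every direction below is between libraries as labelled. Of the A549 markers checked, KRT8, KRT18, AKR1B10 and ALDH1A1 were above 743 CPM in every library, EPCAM was at 2.27 to 4.19 CPM, and CDKN2A, which A549 cells have lost, was at or below 0.459 CPM. Of 10 markers of leukocytes, fibroblasts and endothelium, PTPRC, CD3E and CDH5 were at 0 in all libraries. The 10 summed to 40.4 to 42.8 CPM with overexpression, against 82.5 to 106 CPM in the controls, nearly all of it CD68, a lysosomal gene, and COL1A1, with 0.407 CPM at most for any other. Ribosomal RNA genes took 1.04% to 1.14% of the counts in the overexpression libraries and 0.8% to 0.852% in the controls. The part of CD68, COL1A1 and ribosomal RNA in the differences below was not tested.

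PARP9 and DTX3L, partners in a complex, were both lower in the overexpression libraries by about the same factor. PARP9 (ENSG00000138496, chr3:122527924-122564577, minus strand) had 260.1, 143 and 350.0 CPM in overexpression replicates 1, 2 and 3, against 581, 504 and 678 CPM in control replicates 1, 2 and 3. DTX3L (ENSG00000163840, chr3:122564238-122575203, plus strand) had 360.1, 205 and 480.4 CPM in overexpression replicates 1, 2 and 3, against 883, 734 and 963 CPM in control replicates 1, 2 and 3. Neither gene's groups overlapped, and within each group both genes were lowest in replicate 2 and highest in replicate 3. The fitted log2 fold change was -1.23 (SE 0.33) for PARP9, a 2.34-fold lower level, and -1.30 (SE 0.32) for DTX3L, a 2.47-fold lower level. In RNA from whole cultures, fewer cells expressing a gene and less of its RNA per cell cannot be told apart.

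PARP14, which encodes a mono-ADP-ribosyltransferase with macrodomains, lies 105 kb beyond DTX3L on the same strand (ENSG00000173193, chr3:122680618-122730840). It had 347, 225 and 586 CPM in overexpression replicates 1, 2 and 3, against 1259.7, 599 and 1601 CPM in control replicates 1, 2 and 3. Overexpression 3 and control 2 nearly met, and the gap between the groups rests on those 2 libraries. The log2 fold change was -1.58 (SE 0.45), or 2.99-fold lower.

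PARP12 and ZC3HAV1, both family members with CCCH zinc fingers that bind RNA, lie on chromosome 7 with 914 kb between them. PARP12 (ENSG00000059378, chr7:140023744-140063721, minus strand) had 73.8, 37.9 and 80.4 CPM in overexpression replicates 1, 2 and 3, against 166, 153 and 226 CPM in control replicates 1, 2 and 3. ZC3HAV1 (ENSG00000105939, chr7:139043520-139109719, minus strand) had 195, 130.2 and 284 CPM in overexpression replicates 1, 2 and 3, against 414, 292 and 489 CPM in control replicates 1, 2 and 3. For PARP12 the groups stood well apart, while for ZC3HAV1 overexpression 3 and control 2 again nearly touched. PARP12 had a log2 fold change of -1.50 (SE 0.32), and ZC3HAV1, with -0.97 (SE 0.32), the smallest of the 6.

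PARP10, a mono-ADP-ribosyltransferase that also binds ubiquitin, had the lowest level and the widest difference of the 6 interferon-linked genes. PARP10 (ENSG00000178685, chromosome 8, 143977153 to 144012772, minus strand) had 11.2, 9.97 and 28.99 CPM in overexpression replicates 1, 2 and 3, against 70.6, 147 and 85.8 CPM in control replicates 1, 2 and 3. In contrast to the other 5, its highest control was replicate 2, where the others were lowest. The log2 fold change was -2.59 (SE 0.48), a 6.04-fold lower level.

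PARP1 and PARP2, the DNA repair enzymes, had overlapping groups. PARP1 (ENSG00000143799, chr1:226360691-226408079, minus strand) had 211, 175 and 289 CPM in overexpression replicates 1, 2 and 3, against 232.5, 199 and 269 CPM in control replicates 1, 2 and 3. PARP2 (ENSG00000129484, chr14:20343582-20357905, plus strand) had 37.0, 35.7 and 41.7 CPM in overexpression replicates 1, 2 and 3, against 35.5, 36.0 and 39.4 CPM in control replicates 1, 2 and 3. Their log2 fold changes were -0.05 (SE 0.24) and 0.05 (SE 0.18). PARP1 had the same lowest and highest replicate in each group as PARP9, DTX3L, PARP12, PARP14 and ZC3HAV1, without their gap between groups.

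**Figure D2:**
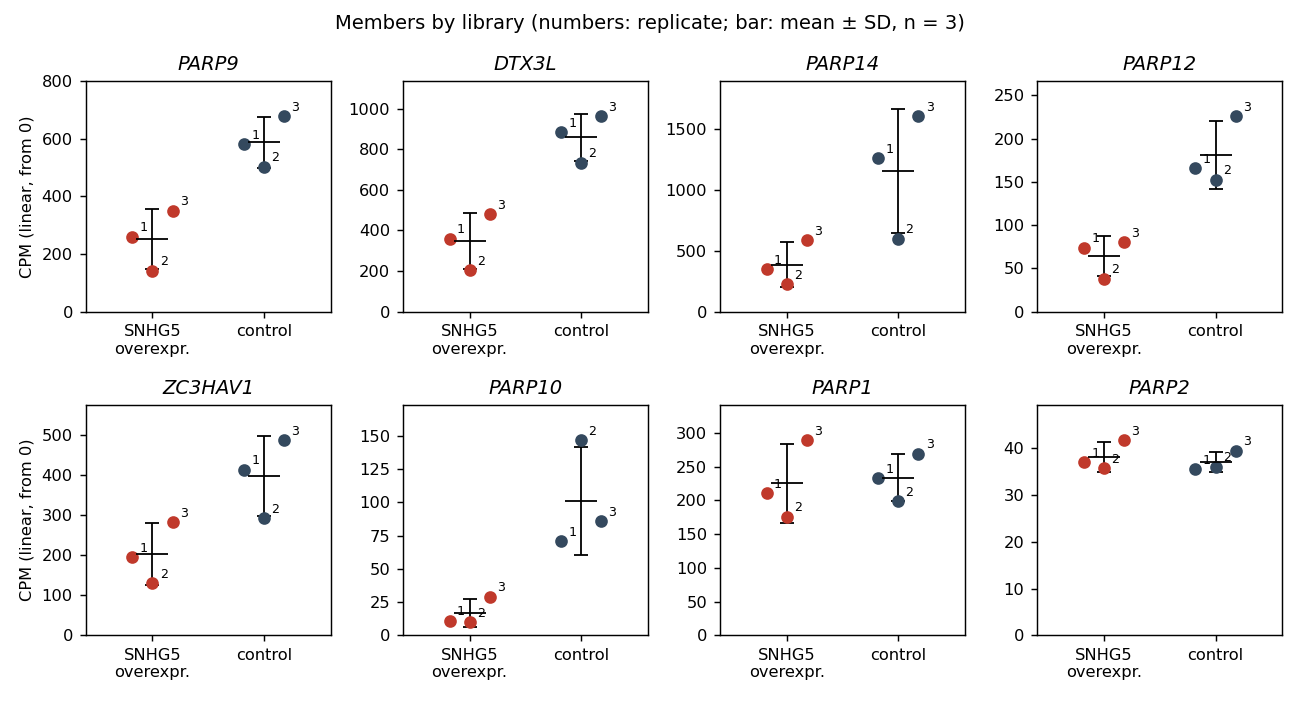
CPM of the 8 genes in each library on linear axes from 0, with the overexpression libraries (red) left of the controls (dark), replicate numbers beside the points, and mean ± SD of 3 libraries as bars. The groups do not overlap for the 6 interferon-linked genes and overlap for PARP1 and PARP2; PARP10 alone has its highest control in replicate 2.

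The 6 interferon-linked genes had a median log2 fold change of -1.40, and the 15631 genes tested a median of 0.01. In all 6 the overexpression libraries lay below the controls, an arrangement that 7.52% of all tested genes showed, with 13.6% of tested genes apart in either direction. None of the 6 passed an adjusted p of 0.05 in edgeR, where 0.102% of tested genes were called as lower and 0.0256% as higher. All 6 had an unadjusted p under 0.05, as had 6.49% of tested genes. DESeq2, which called 1.57% of tested genes as lower, called 5 of the 6 (not ZC3HAV1), and limma-voom, which called 0.128% as lower, called 0. The edgeR fit with the replicate number as a block called PARP14, with 0.441% of tested genes then called as lower and 0.467% in either direction. Since these values chose the genes, nothing is read from the counts. Without overexpression 3, the log2 fold changes were -1.55 for PARP9, -1.61 for DTX3L and -2.02 for PARP14. They were -1.70 for PARP12, -1.30 for ZC3HAV1 and -3.26 for PARP10. PARP10 was called, with 0.902% of tested genes then called as lower. Without overexpression 2, the log2 fold changes were -0.95 for PARP9, -1.04 for DTX3L and -1.31 for PARP14. They were -1.24 for PARP12, -0.74 for ZC3HAV1 and -2.34 for PARP10, and none of the 6 was called. Leaving out each library in turn put PARP1 between -0.28 and 0.09 and PARP2 between -0.03 and 0.09.

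Between same-numbered libraries, PARP10 differed by -2.65, -3.86 and -1.56 on the log2 scale in replicates 1, 2 and 3. PARP9 differed by -1.16, -1.82 and -0.95, and DTX3L by -1.29, -1.84 and -1.0. All 3 genes were furthest apart in replicate 2. For PARP14 the 3 differences were closer together, at -1.86, -1.41 and -1.45, and largest in replicate 1. ZC3HAV1 had -1.08, -1.17 and -0.78, and PARP12 had -1.16, -2.01 and -1.49. The smallest of the 3 differences was in replicate 3 for PARP9, DTX3L, ZC3HAV1 and PARP10, in replicate 1 for PARP12 and in replicate 2 for PARP14. Together the 6 genes took 0.123%, 0.0772% and 0.185% of all counts in overexpression replicates 1, 2 and 3, against 0.327%, 0.25% and 0.386% in control replicates 1, 2 and 3.

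Levels were compared between genes per length, with the authors' FPKM. DTX3L stood highest, at 57.6 ± 22.9 FPKM in the overexpression libraries and 138 ± 13.4 FPKM in the controls (SD, n = 3 each). PARP14 followed with 27.0 ± 13.0 FPKM in the overexpression libraries and 77.6 ± 32.1 FPKM in the controls, and PARP9 with 20.4 ± 8.46 FPKM in the overexpression libraries and 46.3 ± 5.27 FPKM in the controls. These 3 genes all lie on chromosome 3. ZC3HAV1 was at 16.9 ± 6.46 FPKM in the overexpression libraries and 32.0 ± 6.85 FPKM in the controls. In the controls the order went on with PARP1 at 23.5, PARP12 at 16.1, PARP10 at 6.84 and PARP2 at 5.64 FPKM. There, DTX3L lay above PARP14 in every library, whereas PARP14 and PARP9, ZC3HAV1 and PARP1, and PARP10 and PARP2 overlapped in their ranges. The other neighbours in that order did not overlap. In the overexpression libraries PARP1, at 23.4 FPKM, came ahead of PARP9, and PARP2, at 5.99 FPKM, came ahead of PARP12, at 5.86, and PARP10, at 1.15 FPKM. Dividing by the union of annotated exons in place of the authors' length gave the same order in the controls, and in the overexpression libraries it put PARP12 ahead of PARP2.

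The ratio of DTX3L to PARP9 counts, which does not depend on library size, hardly varied over the 6 libraries. It was 1.38, 1.43 and 1.37 in overexpression replicates 1, 2 and 3, against 1.52, 1.46 and 1.42 in control replicates 1, 2 and 3, so that the highest was 1.11 times the lowest. For PARP12 to PARP9 the highest ratio was 1.45 times the lowest, for ZC3HAV1 to PARP9 1.57 times, for PARP14 to PARP9 1.99 times and for PARP10 to PARP9 6.8 times. PARP1 to PARP2 varied 1.41-fold.

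**Figure D3:**
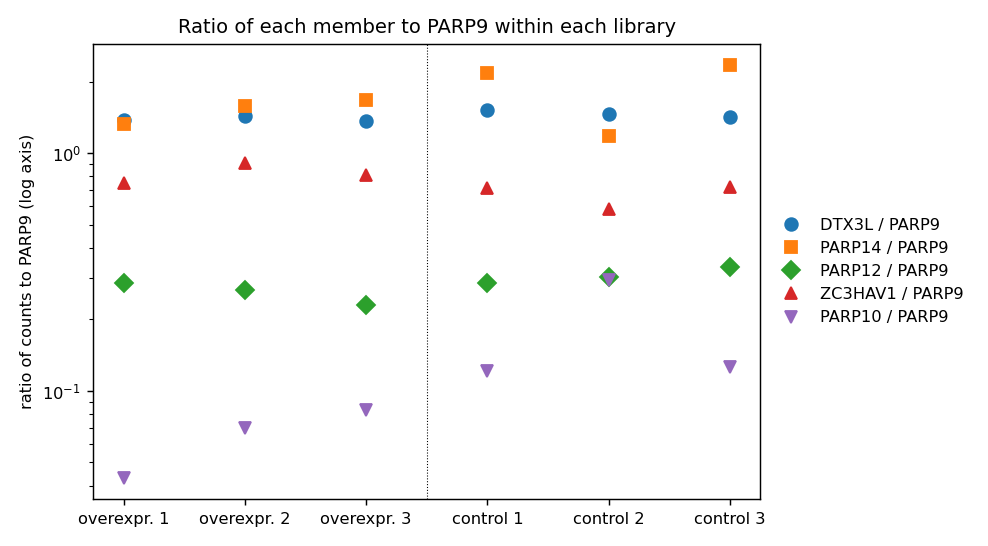
Ratio of the counts of DTX3L, PARP14, PARP12, ZC3HAV1 and PARP10 to those of PARP9 in each library, on a log axis, overexpression libraries left of the dotted line and controls right of it. DTX3L stays between 1.37 and 1.52, whereas PARP10 runs from 0.0429 in overexpression 1 to 0.292 in control 2.

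Likeness of profiles was measured as the root mean square difference of log2 CPM, each gene centred on its own mean over the 6 libraries, so genes with a like difference between groups come near each other. Among 12775 other tested protein-coding genes, DTX3L was the nearest to PARP9 and PARP9 the nearest to DTX3L, at 0.0485. When only the deviations from the group means were used, so that the difference between groups played no part, each was again the nearest to the other, at 0.0342. Head-to-head pairs of tested protein-coding genes with starts within 1000 bases numbered 1033. By profile over all 6 libraries, PARP9 and DTX3L were the closest pair, at 0.0485 against a median of 0.396. Those profiles hold the difference between groups by which both genes were chosen, and in 5 of the pairs both genes moved by at least 2-fold. The pairs were not ranked by deviations within groups. The libraries do not mark the strand, and the genes share 217 exon bases, 2.43% of those of PARP9 and 3.7% of those of DTX3L, where reads cannot be told apart.

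The next nearest genes to PARP9 were TRIM14, an adaptor of antiviral signalling (0.0723), and HERC6, a ubiquitin ligase (0.146), and TRIM14 (0.0743) and SP110 (0.117) came next for DTX3L. PARP12 was nearest to SP110 (0.0995), PPM1K (0.111) and NT5C3A (0.115). PARP14 had no gene as close, with RNF213, a large ubiquitin ligase, at 0.161, DDX58, the RNA sensor RIG-I, at 0.164 and DISC1 at 0.224. ZC3HAV1 was nearest to CPEB3 (0.126), ADAR, an RNA editing enzyme (0.129), and HEG1 (0.132). PARP10 was nearest to IFI35 (0.107), IFI6 (0.119) and PSMB9, an immunoproteasome subunit (0.14), and no other interferon-linked gene here came closer to it than PARP12, at 0.796. By deviations within groups, ZC3HAV1 and PARP1 differed by 0.156 and DTX3L and PARP1 by 0.178, closer than PARP10 was to any of the 8, the smallest being 0.499 for PARP9.

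The tested genes around the chromosome 3 and chromosome 7 loci were not lower as a group. Within 500 kb of PARP9, DTX3L or PARP14 lie KPNA1, an importin, with a log2 fold change of 0.10 (SE 0.18), and HSPBAP1, the next gene beyond PARP14, with 0.46 (SE 0.31). The 8, 9 and 10 tested neighbours of PARP9, DTX3L and PARP14 had medians of 0.13, 0.13 and 0.13, and none lay wholly below the controls. For each of these genes, the same 1 neighbour lay wholly above the controls, with a log2 fold change of 0.89 (SE 0.28). PARP15, a PARP gene lying between DTX3L and PARP14, was counted 0, 0 and 1 times in the overexpression libraries, against 0, 4 and 3 times in the controls, too few to test. ZC3HAV1L, the paralog next to ZC3HAV1, was at 0.08 (SE 0.25), and the 10 tested neighbours of ZC3HAV1 and 7 of PARP12 had medians of 0.10 and 0.09.

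**Figure D4:**
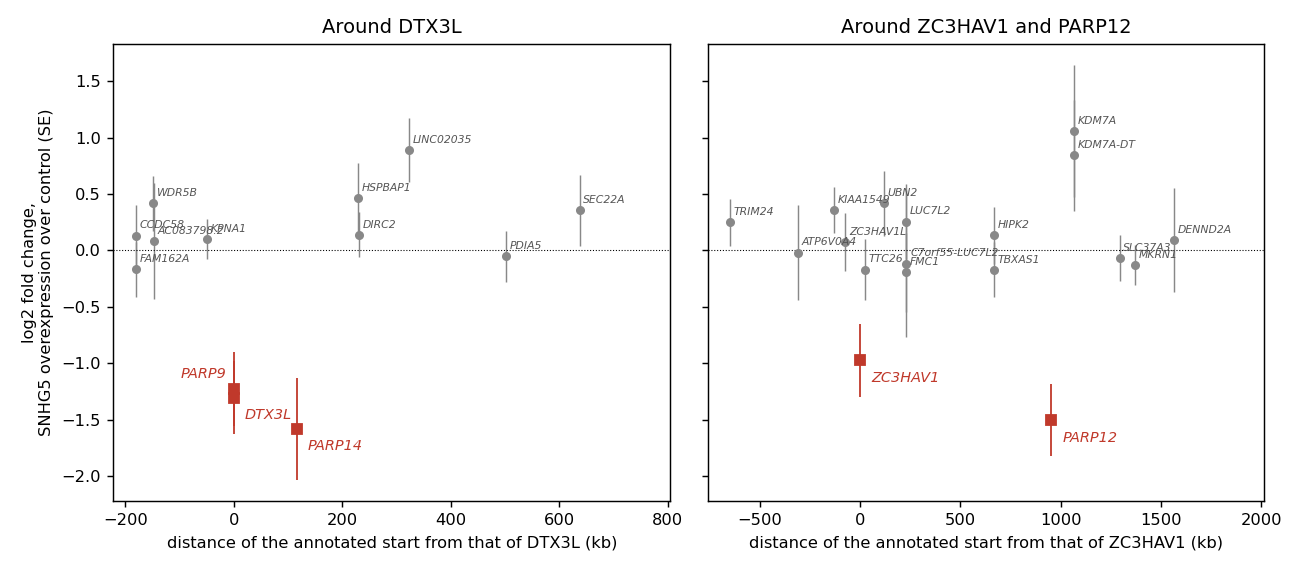
Log2 fold change (overexpression over control, bars SE) of genes within 500 kb of the chromosome 3 genes (left) and chromosome 7 genes (right), by distance of their annotated start in kb. PARP9, DTX3L, PARP14, ZC3HAV1 and PARP12 (red squares) lie between -1.58 and -0.97, and the lowest grey neighbour lies at -0.194.

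PARP10 lies in a gene-dense part of chromosome 8, and there 38 of 43 tested neighbours had a fold change below 0, with a median of -0.40. The median of all tested genes was 0.01. The 8 genes and the related genes described below were not counted as neighbours at any locus. Of the 43, 10 lay wholly below the controls and 0 wholly above, against 7.52% and 6.04% of all tested genes. The nearest neighbour was GRINA, a membrane protein gene that lies within PARP10 on the opposite strand. The 2 genes share 324 exon bases, 5.37% of those of PARP10 and 12.8% of those of GRINA. Reads there cannot be told apart, as the libraries do not mark the strand. GRINA averaged 75.9 CPM with overexpression, against 150.5 CPM in the controls (log2 fold change -0.99, SE 0.19, edgeR adjusted p 0.124). ZC3H3, a CCCH zinc finger gene, was at -0.66 (SE 0.20, edgeR adjusted p 0.484). PLEC, on the other side, was at -0.20 (SE 0.26). With a library left out, the median of the 43 lay between -0.59 (without overexpression 3) and -0.24 (without overexpression 1), and it was -0.26 without control 2. Around PARP2, 9 of 11 tested neighbours also had a fold change below 0, with a median of -0.11. Near PARP1, H3F3A, which encodes a histone H3.3, had 0.90 (SE 0.26, edgeR adjusted p 0.459). Over all loci 91 different neighbours were tested and 0 passed edgeR, 8 had an unadjusted p under 0.05, DESeq2 called GRINA and limma-voom none.

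The rest of the PARP family, 10 genes of which 9 were tested, had a median log2 fold change of 0.07, and none passed edgeR, DESeq2 or limma-voom; 1 had an unadjusted edgeR p under 0.05. That gene was PARP8, at 1.40, 0.291 and 0.873 CPM in overexpression replicates 1, 2 and 3 against 1.40, 2.03 and 3.57 CPM in control replicates 1, 2 and 3 (log2 fold change -1.43, SE 0.59, edgeR adjusted p 0.743). TIPARP, a mono-ADP-ribosyltransferase induced by the aryl hydrocarbon receptor, had 289, 356 and 57.6 CPM in overexpression replicates 1, 2 and 3, against 146, 90.4 and 92.9 CPM in control replicates 1, 2 and 3. It was higher in overexpression 1 and 2 and lower in overexpression 3 than every control, with a log2 fold change of 1.09 (SE 0.58, edgeR adjusted p 0.746). The tankyrases TNKS and TNKS2, which build ADP-ribose chains, were at 0.25 (SE 0.25) and 0.17 (SE 0.25), and PARP4, the vault PARP, was at -0.18 (SE 0.24). PARP3, a DNA break PARP, was at -0.29 (SE 0.22), with edgeR adjusted p of 0.749. PARP6, PARP11 and PARP16 lay between 0.06 and 0.29.

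The deltex family, to which DTX3L belongs, consists of ubiquitin ligases. Of its other genes, DTX2 was at -0.26 (SE 0.20), DTX3 at -0.20 (SE 0.34) and DTX4 at 0.15 (SE 0.50), with edgeR adjusted p of 0.751 to 0.932, and DTX1 had too few counts to test. STAT2 and IRF9, parts of ISGF3, were lower in every overexpression library than in every control, but neither passed the main test. STAT2 had 76.5, 36.5 and 138 CPM in overexpression replicates 1, 2 and 3, against 313, 206 and 406 CPM in control replicates 1, 2 and 3, a log2 fold change of -1.88 (SE 0.48, edgeR adjusted p 0.295 and, with the replicate block, 0.0367). IRF9 was at -0.99 (SE 0.29, edgeR adjusted p 0.457).

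Among 7 genes that remove ADP-ribose, the median was 0.22 and none passed edgeR or limma-voom. ADPRHL2, which cleaves ADP-ribose from serine, had 24.0, 27.1 and 27.2 CPM in overexpression replicates 1, 2 and 3, against 42.7, 60.9 and 49.5 CPM in control replicates 1, 2 and 3 (log2 fold change -0.97, SE 0.20, edgeR adjusted p 0.155, DESeq2 adjusted p 0.00561). PARG, which degrades ADP-ribose chains, was at 0.22 (SE 0.20), and MACROD1, a macrodomain hydrolase, at -0.53 (SE 0.33). Among 7 readers of ADP-ribose the median was 0.07. RNF146, a ubiquitin ligase that binds ADP-ribose chains, had 30.3, 26.9 and 17.99 CPM in overexpression replicates 1, 2 and 3 against 6.80, 7.54 and 7.51 CPM in control replicates 1, 2 and 3 (log2 fold change 1.78, SE 0.26, edgeR adjusted p 0.0668, and 0.017 to 0.325 over the fits that each omit a library). The lowest of these adjusted p came without overexpression 3. APLF and GDAP2 were at 0.14 and 0.27.

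The 8 partners of PARP1 and PARP2 in single-strand break repair had a median of 0.02, none with an unadjusted p under 0.05 in edgeR. FEN1, a flap nuclease, was at -0.39 (SE 0.36) and TDP1 at 0.23 (SE 0.21). The 11 genes that act with ZAP in RNA decay had a median of -0.28. TRIM25, the ubiquitin ligase that ZAP needs, had 344, 217 and 395 CPM in overexpression replicates 1, 2 and 3, against 548.6, 478 and 659.9 CPM in control replicates 1, 2 and 3 (log2 fold change -0.82, SE 0.27, edgeR adjusted p 0.572). N4BP1, an RNase related to the ZAP cofactor KHNYN, was at -0.76 (SE 0.20, edgeR adjusted p 0.319), EXOSC5, an exosome subunit, at -0.47 (SE 0.27) and KHNYN at 0.055.

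Of the genes that make or use NAD+, the substrate of the family, 9 of 11 were tested, with a median of -0.19. CD38, an NAD+ hydrolase, had 29.9, 34.1 and 62.3 CPM in overexpression replicates 1, 2 and 3, against 102, 259 and 153 CPM in control replicates 1, 2 and 3 (log2 fold change -2.03, SE 0.41, edgeR adjusted p 0.148, DESeq2 adjusted p 0.000181). Like PARP10, CD38 was highest in control 2. NAMPT, the main NAD+ salvage enzyme, was at -0.09, NADK, which makes NADP+, at -0.55 (SE 0.26) and BST1, a relative of CD38, at -0.41 (SE 0.24). Over all 61 related genes, 57 were tested, 0 passed edgeR, 9 had an unadjusted p under 0.05, DESeq2 called 5, among them ADPRHL2, RNF146, STAT2 and CD38, and limma-voom called none. Groups lay apart downwards in 12 of the 57 and upwards in 2, against 7.52% and 6.04% of all tested genes. With 3 libraries a group, an adjusted p above the threshold does not show that a gene did not differ.

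**Figure D5:**
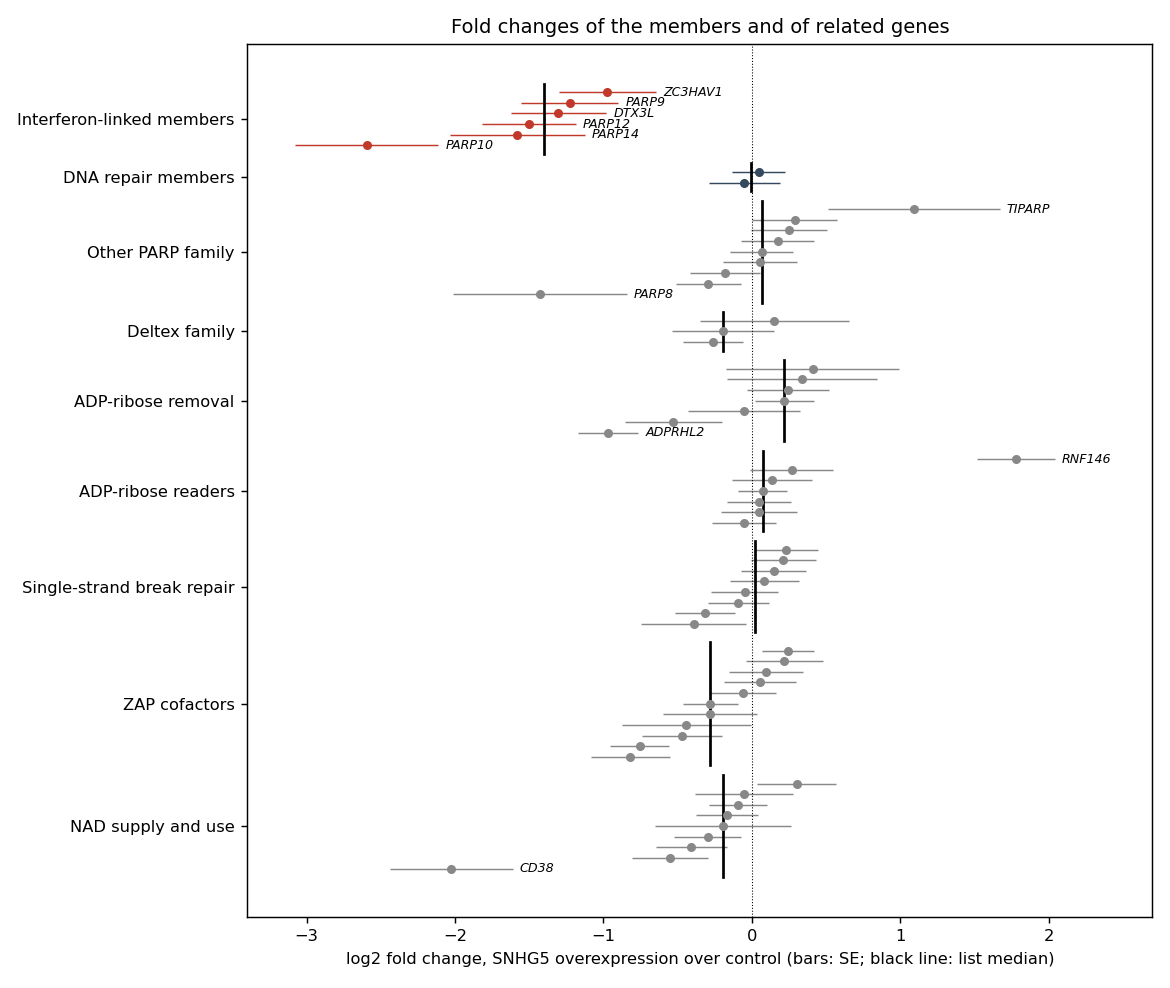
Log2 fold change (overexpression over control, bars SE) of each tested gene by list, with list medians as black lines; genes beyond 0.9 in size are named. The 6 interferon-linked genes (red) have a median of -1.40 and PARP1 and PARP2 (dark) lie at -0.05 and 0.05. The grey lists drawn have medians between -0.28 and 0.22. The list of ISGF3 genes is not drawn, and its genes STAT2 and IRF9 had log2 fold changes of -1.88 and -0.99.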

How the data were processed

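RNA-seq of 6 A549 libraries, 3 per group, was used. Per the labels' protocols, RNA was purified on columns and paired-end libraries came from a TruSeq RNA kit, which does not mark the strand. FastQC, HISAT2 and GRCh38 stand in the submitters' processing notes. How reads were counted is not given in the sources used here. Whole-number counts were deposited by the authors next to FPKM per gene, per the file headers, for 58302 gene rows. Solving the authors' FPKM for gene length gave 1 length per gene in every library (within 0.01%, 100.0% of 12867 well-counted genes). For 92.0% it matched all distinct GENCODE 29 exons added up, overlaps included, which lowers FPKM for genes with many isoforms.

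The tests on counts used edgeR 4.0.16 under R 4.3.3 (TMM, filterByExpr, robust quasi-likelihood test, two-sided, Benjamini-Hochberg over 15631 genes, threshold 0.05), with DESeq2 1.42.0, limma-voom (limma 3.58.1), other size factors and filters, the replicate block and leaving out each library as alternatives. The script was tested on simulated counts. SE is the log2 fold change divided by the square root of F. CPM use TMM-scaled totals, log2 CPM a prior count of 2. Library depth put 3 counts at 0.175 to 0.218 CPM on these scaled totals, which covers counting error only. Replicates differed by 26.2 to 94.5 chi-square per degree of freedom, so each counted as 1.

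The 8 genes and the related lists were chosen with earlier results of these data known. The text names all genes of the PARP family list, of each other list those passing or else the 3 with the smallest p, likewise of genes within 500 kb, and the 3 nearest profiles per interferon-linked gene; PLEC, KPNA1, HSPBAP1, ZC3HAV1L, KHNYN, NAMPT and DTX1 were named after their values were seen. Some genes under this rule are not reported here. Same-numbered libraries deviated together (correlation of deviations from group means 0.355, 0.157 and 0.292 in replicates 1, 2 and 3, other combinations -0.341 to 0.117). This met the criterion for pairing, though replicate 2 lay little above the highest of the other combinations. The main fit, which gave the SE, has no block, since the labels state none. The fit with the replicate number as a block is given where it changes a call. The common coefficient of variation between replicates was 30.8% without the block and 26.2% with it.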

Additional observations from a re-analysis of the deposited data

How the results depend on the processing

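All 6 interferon-linked genes stayed below 0 in each of 12 alternatives (72 values), and their median log2 fold change, -1.40, ran from -1.66 without overexpression 3 to -1.14 without overexpression 2. The 6 genes were chosen as lower in these same counts, so their signs under the alternatives support nothing. As the groups do not overlap, leaving out 1 library could not have turned these signs. SNHG5 stayed short of the threshold throughout. Genes called as lower numbered 16, against 72 with no low-count filter, 69 with the replicate block and 246 with DESeq2, and 0 to 144 without 1 library. Genes called as higher numbered 4, against 20 with DESeq2 and 0 to 20 without 1 library. The 0 counts arose without overexpression 2, control 2 or control 3, where 635, 871 and 742 genes had an unadjusted edgeR p under 0.05, and for higher genes also without overexpression 1. Of the related genes, 0 were called in the main test, 1 with no filter (RNF146), 1 with the replicate block (STAT2), 5 with DESeq2, and 0 to 1 without 1 library. Of the neighbours, DESeq2 called 1 and the other alternatives 0, the range without 1 library being 0 to 0. For 47 other named genes, 539 of 564 values gave the same call and 25 gained one. Beyond the calls given, the block also called SP110 and RNF213. The causes of these shifts were not tested. Depth limits PARP15 and DTX1, which had too few counts to test.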

Other observations

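Control 2 separated PARP10 from the other 5 interferon-linked genes. Compared with the mean of controls 1 and 3, on the log2 scale, control 2 was higher for PARP10 by 0.92 and differed by -1.25 for PARP14, -0.62 for ZC3HAV1, -0.34 for PARP12, -0.33 for DTX3L and -0.32 for PARP9. The ratio of PARP10 to PARP14 counts was 0.0322, 0.0443 and 0.0495 in overexpression replicates 1, 2 and 3, against 0.0561, 0.245 and 0.0536 in control replicates 1, 2 and 3. Over all tested genes, the same difference of control 2 had a median of 0.31 for those with 56 to 2561 exon bases. The median was -0.07 for genes with 4492 to 7047 exon bases, the range of PARP10, DTX3L and PARP12. It was -0.29 for genes with 7049 to 205012 exon bases. The exon union of PARP14 is 10495 bases and that of PARP10 6033 bases, while DTX3L, with 5868 bases, lay below 0. The part of transcript length in these values was not tested.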
